A study of Homo sapiens with 6 samples.

Results

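The upper tier of the Hippo pathway was followed at the mRNA level through 10 genes, the kinases TAOK1, TAOK2, TAOK3 and MAP4K4, the scaffolds WWC1 and WWC2, the FERM domain proteins FRMD6 and PTPN14, and the angiomotin-like proteins AMOTL1 and AMOTL2. They were selected by gene symbol and not by any cutoff on a measured value, but with earlier results of these data known. They are 10 of the 27942 genes in the deposited table. All 10 were among the 13727 genes that passed the filter on low counts. Bulk poly(A) RNA-seq was done on HCT116, an established human colorectal carcinoma cell line, in 3 libraries of non-treated cells (NT) and 3 of cells exposed to 0.5 µM oxaliplatin, a DNA-damaging platinum drug, for 24 h (OXA). The labels name no genetic change in either group, and both share the genotype of the line, with wild-type p53 and mutated CTNNB1. The comparison thus covers 1 cell line, 1 dose and 1 time, and in such bulk samples fewer cells carrying a transcript and less of it per cell cannot be told apart.

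In the Hippo pathway a kinase cascade restrains the transcriptional co-activators YAP and TAZ. MST kinases phosphorylate and activate LATS kinases, which phosphorylate YAP and TAZ so that they are held in the cytoplasm or degraded, and unphosphorylated YAP and TAZ drive transcription with TEAD factors in the nucleus. The genes followed here act at the top or at the side of that cascade: TAO kinases activate MST kinases, MAP4K kinases act on LATS in parallel with MST, WWC scaffolds bring LATS together with its activators, and PTPN14 and the angiomotins bind YAP directly.

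Library totals ranged from 32979521 to 40967880 counts. Library NT1 stood apart from its group: the chi-square of counts per gene was 83.1 between NT1 and NT2 and 75.7 between NT1 and NT3, against 19.2 to 29.6 for the other pairs of libraries within a group. No pair of libraries was as close as counting error alone would leave it, which gives about 1 per gene. NT and OXA libraries with the same number lay off their group means in the same way, so each comparison was fitted both without and with a block for the library number. The labels do not say whether the libraries of a group came from separate cultures, and p-values rest on the spread between these libraries. In the fits the variance of each gene is also drawn toward that of other genes, the more so with the block. The p-values thus do not measure the spread of a single gene alone. Transcripts of epithelial cells were abundant in NT (EPCAM 114, KRT8 158 and KRT18 273 counts scaled to library size, CPM, per kb of exon), whereas the colonic differentiation markers KRT20 and VIL1 were at 0.669 and 0.319. Of 7 markers of other cell types, PTPRC, CD3E, COL3A1 and PECAM1 had 0 to 9 raw counts per library and failed the filter, whereas VWF had 13 to 29, CD68 152 to 237 and COL1A1 107 to 273. edgeR called 0 of the 8 epithelial and 0 of the 3 tested other markers without the block. At an unadjusted p-value under 0.05 it called 3 and 0, against 21.7% of all genes, and DESeq2 called 1 and 0. With the block KRT19 (log2 fold change 1.37, adjusted p = 0.00673), KRT8 (0.50, adjusted p = 0.0271) and KRT18 (0.32, adjusted p = 0.0184) were higher and CDH1 lower (-0.20, adjusted p = 0.0408), so 4 of 8 epithelial markers were called, against 23.0% of all genes, and 0 of the 3 others. The part of these shifts in the results for the 10 genes was not tested. The p53 targets CDKN1A, MDM2 and TP53I3, read as a check of the treatment, rose by 2.93, 2.22 and 2.83 on the log2 scale (edgeR adjusted p = 0.000445, 0.000445 and 0.00109).

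Promoter sequences were examined because TEAD factors, the partners of YAP and TAZ, bind the element GGAATG, and 2 of the genes, PTPN14 and AMOTL2, are themselves on the list of YAP/TAZ targets used here. All 10 genes were found in the RefSeq promoter table (GRCh38.p14), with 14 windows that run from 250 bases before to 50 after an annotated start. The element, read on both strands, was present in 4 of these 14 windows, 1 each for PTPN14, AMOTL2, WWC2 and TAOK3, against 14.03% of all 35116 RefSeq windows. The AP-1 element TGACTCA was in 0 of the 14 windows (4.95% of all windows) and the p53 half-site in 0 (6.63%). Such matches describe letters in a window and are not evidence of binding.

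The bases before the start of WWC1, which has no TEAD element, of WWC2, which has a pair of them, and of PTPN14 are shown 5′ to 3′ on the strand of the gene. Capitals mark the TEAD element (GGAATG, or CATTCC where it lies on the other strand).
WWC1, chr5:168291395-168291644, plus strand: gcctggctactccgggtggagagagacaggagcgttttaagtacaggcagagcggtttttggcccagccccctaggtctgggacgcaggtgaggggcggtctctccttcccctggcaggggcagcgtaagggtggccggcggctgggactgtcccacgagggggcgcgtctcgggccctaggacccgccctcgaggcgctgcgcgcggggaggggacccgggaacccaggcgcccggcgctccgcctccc
WWC2, chr4:183099007-183099256, plus strand: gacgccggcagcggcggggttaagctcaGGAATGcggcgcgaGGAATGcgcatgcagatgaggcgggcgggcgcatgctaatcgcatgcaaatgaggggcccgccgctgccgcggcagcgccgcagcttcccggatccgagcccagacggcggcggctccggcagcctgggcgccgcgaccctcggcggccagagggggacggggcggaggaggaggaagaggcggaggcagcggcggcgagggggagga
PTPN14, chr1:214551603-214551852, minus strand: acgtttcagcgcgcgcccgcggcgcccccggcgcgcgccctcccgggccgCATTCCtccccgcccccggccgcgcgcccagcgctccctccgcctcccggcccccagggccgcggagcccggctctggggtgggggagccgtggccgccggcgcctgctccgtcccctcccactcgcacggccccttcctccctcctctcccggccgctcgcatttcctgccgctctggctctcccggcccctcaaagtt

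For AMOTL2 and TAOK3 the element lay before the second annotated start of each gene, and 30 bases around it are given for comparison with the windows above.
AMOTL2, chr3:134374499-134374528, minus strand: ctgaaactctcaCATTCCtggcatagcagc
TAOK3, chr12:118190752-118190781, minus strand: ttatccttccagGGAATGctattttttcac

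In WWC2 the elements began 222 and 208 bases before the start, in PTPN14 200, in AMOTL2 69 and in TAOK3 234 bases before it. The 300-base windows of WWC1, WWC2 and PTPN14 had GC contents of 72.7%, 74.0% and 77.3% and held 31, 42 and 42 CpG dinucleotides, above the medians of 58.7% and 14 over all windows. The first AMOTL2 window, with 1 CpG, differed from its second, with 37. The genes with an element include 2 that were higher in all 3 OXA libraries than in any NT library (PTPN14 and AMOTL2) and 2 whose groups overlapped (WWC2 and TAOK3). Of the genes without an element, WWC1 was also higher in all 3 and FRMD6 was lower in all 3. The groups of TAOK1, TAOK2, MAP4K4 and AMOTL1 overlapped. Over all genes tested, 14.5% were higher and 14.4% lower in OXA without overlap. A link between the element and these differences was not tested.

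The 10 genes were compared between NT and OXA to ask whether oxaliplatin was accompanied by a change in the mRNA of the pathway's upstream regulators. In the fit without a block, 0 of the 10 had an edgeR adjusted p-value under 0.05, against 5.07% of all genes tested. By unadjusted p-values under 0.05 edgeR called 3 of the 10, all higher, against 21.7% of all genes (10.7% higher). DESeq2 also called 0 of 10 (8.56% of all genes, 4.43% higher and 4.13% lower), and 0 passed with a fold change over 1.5 as well (3.41%). The log2 fold changes (OXA over NT) lay between -0.24 for FRMD6 and 0.42 for WWC1, with a median of 0.13 against 0.023 for all genes tested. In 4 of the 10 the groups did not overlap, 3 higher in OXA (WWC1, PTPN14 and AMOTL2) and 1 lower (FRMD6), to be read against 28.9% of all genes (14.5% higher and 14.4% lower). With the replicate block, 5 of the 10 passed an adjusted p-value of 0.05: WWC1, AMOTL2, PTPN14 and MAP4K4 were higher and FRMD6 was lower, against 23.0% of all genes (12.1% higher and 10.9% lower). The direction was the same in all 3 same-numbered pairs for 8 of the 10, 5 higher and 3 lower, against 61.4% of all genes (33.8% higher and 27.6% lower).

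**Figure D1:**
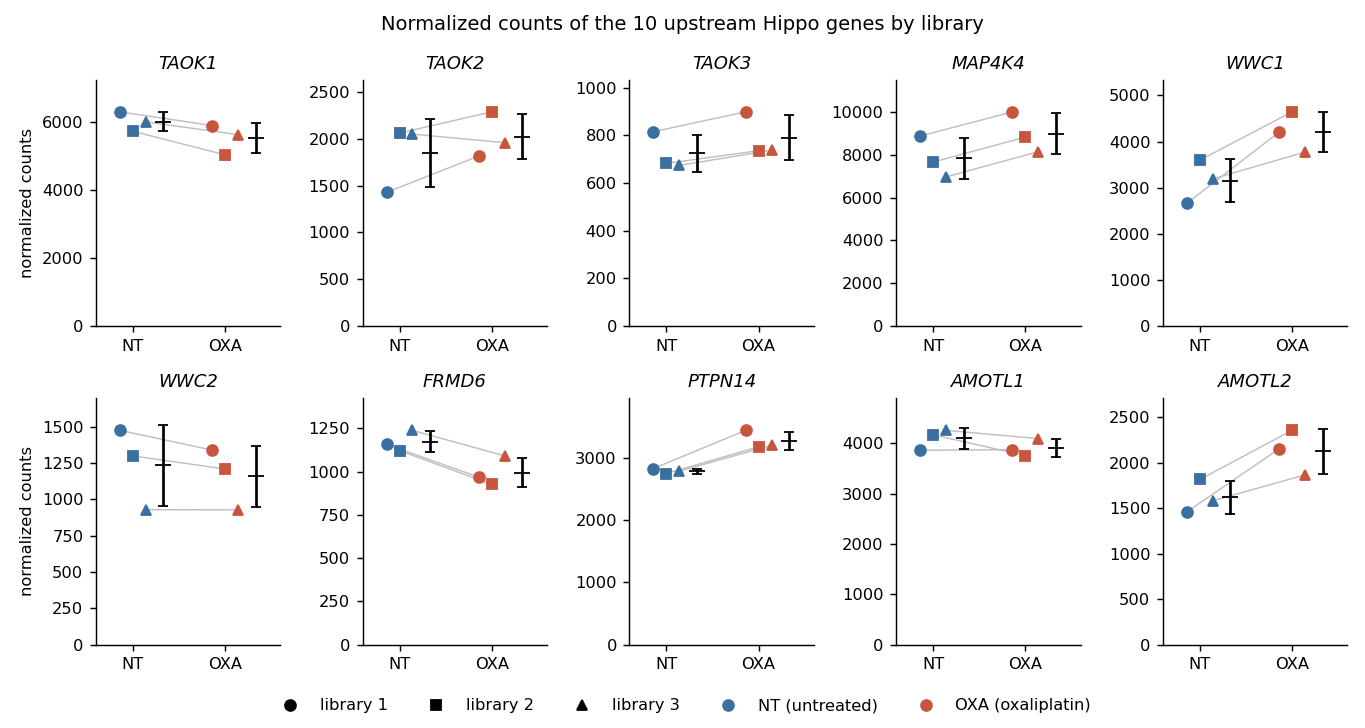
Normalized counts (linear axes from 0) of each of the 10 genes in the 3 NT (blue) and 3 OXA (red) libraries, with grey lines joining same-numbered libraries and black marks giving the mean ± SD of each group. All 3 OXA points lie above all 3 NT points for WWC1, PTPN14 and AMOTL2 and below them for FRMD6, and the groups overlap for the other 6 genes.

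TAOK1 (ENSG00000160551; chromosome 17, 29390363 to 29551903, plus strand; 20 exons in its longest transcript, all positions being those of GENCODE 44 on GRCh38) encodes a STE20-family kinase that activates MST kinases. It had 6291, 5721 and 5997 normalized counts in NT1, NT2 and NT3 and 5889, 5029 and 5622 in OXA1, OXA2 and OXA3. OXA was the lower library in each same-numbered pair, yet OXA1 lay above NT2 and the groups overlapped. The means were 6003 ± 285 in NT and 5513 ± 440.5 in OXA (SD, n = 3 each), a log2 fold change of -0.12 (SE, standard error, 0.092, 95% interval -0.34 to 0.091, edgeR adjusted p = 0.499). With the block the adjusted p was 0.122, and with 1 library left out the log2 fold change lay between -0.19 (without NT2) and -0.060 (without OXA2).

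TAOK2 (ENSG00000149930; chromosome 16, 29973868 to 29992261, plus strand) encodes a related kinase and is the shortest of the 10 loci. It had 1429, 2063 and 2052 normalized counts in NT and 1818, 2289.7 and 1960.2 in OXA. NT1 was the lowest of the 6, and the other NT libraries lay among the OXA libraries. The log2 fold change was 0.13 (SE 0.16, 95% interval -0.25 to 0.51, edgeR adjusted p = 0.701), and without NT1 it turned to -0.024.

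TAOK3 (ENSG00000135090; chromosome 12, 118149801 to 118372907, minus strand), the third TAO kinase, had 816, 683 and 674 normalized counts in NT and 899, 736 and 738 in OXA. Library 1 was the highest of its group in both conditions, and NT1 lay above OXA2 and OXA3. Within pairs OXA was higher by 0.14, 0.11 and 0.13 on the log2 scale. The log2 fold change of 0.13 (SE 0.13, 95% interval -0.18 to 0.44) did not pass the test without the block (edgeR adjusted p = 0.640) or with it (adjusted p = 0.236). It was 0.22 without NT1 and 0.025 without OXA1.

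MAP4K4 (ENSG00000071054; chromosome 2, 101696850 to 101894690, plus strand; 33 exons in its longest transcript) encodes a kinase that can phosphorylate LATS and also acts in stress kinase signalling. Its normalized counts were 8879, 7662 and 6969 in NT and 10011, 8834 and 8152 in OXA. Library 1 was the highest and library 3 the lowest in both groups, so that NT1 exceeded OXA2 although OXA was the higher of every pair. The pair differences were nearly equal, 0.17, 0.21 and 0.23 on the log2 scale. Without the block the log2 fold change was 0.20 (SE 0.12, 95% interval -0.082 to 0.48, edgeR adjusted p = 0.395), and with it the SE narrowed to 0.046 and the adjusted p to 0.0303. This call was lost when the authors' gene-specific normalization factors were added to the block (adjusted p = 0.167). Without the block the value was 0.30 when NT1 was left out and 0.088 when NT3 was.

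The WWC scaffolds parted. WWC1 (ENSG00000113645; chromosome 5, 168291645 to 168472303, plus strand; 23 exons in its longest transcript) encodes KIBRA, a scaffold of LATS and of its activators at the cell cortex. It had 2663, 3596 and 3189.5 normalized counts in NT1, NT2 and NT3 and 4205, 4644 and 3772 in OXA1, OXA2 and OXA3. Every OXA library was above every NT library, with OXA3 closest to NT2. The means of 3149 ± 468 and 4207 ± 436 (SD, n = 3) gave a 1.34-fold difference (95% interval 1.08 to 1.65), or 0.42 on the log2 scale (SE 0.13). Its edgeR adjusted p was 0.117 without the block and 0.0228 with it. The pair differences were unequal, 0.66, 0.37 and 0.24, the largest in the pair that contains NT1. Without NT1 the log2 fold change was 0.31 (adjusted p = 0.117). WWC1 was the one gene of the 10 called in all 3 blocked fits that each leave out 1 pair, with a highest adjusted p of 0.0374. Without pair 1, 2 or 3 these fits called 41.5%, 11.8% and 22.3% of all genes. The share of all genes called in all 3 was not counted. In those fits the variance was pooled over genes, so the p-values do not measure the spread of WWC1 itself between libraries.

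WWC2 (ENSG00000151718; chromosome 4, 183099257 to 183320777, plus strand) encodes the second scaffold of the family. It had 1474, 1298 and 928 normalized counts in NT and 1338, 1208 and 927 in OXA. Library 1 was the highest and library 3 the lowest in both groups, and the groups overlapped. The log2 fold change was -0.092 (SE 0.20, 95% interval -0.56 to 0.37, edgeR adjusted p = 0.838) and turned positive without NT1 (0.057) or without OXA3 (0.013). CLDN22, which lies within WWC2 on the opposite strand, had 0 to 18 raw counts.

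Of the FERM domain pair, one was lower and one higher in OXA. FRMD6 (ENSG00000139926; chromosome 14, 51489100 to 51730727, plus strand) encodes willin, a mammalian relative of the fly protein Expanded. Its normalized counts were 1157, 1121 and 1238 in NT and 967, 926 and 1091 in OXA. All 3 OXA libraries were below all 3 NT libraries, and the pair differences were -0.26, -0.28 and -0.18. The means were 1172 ± 60.0 and 995 ± 85.8 (SD, n = 3), a log2 fold change of -0.24 (SE 0.11, 95% interval -0.48 to 0.0097). The edgeR adjusted p was 0.249 without the block and 0.04999, just within the threshold, with it. With the block and the authors' factors the log2 fold change was -0.32 (adjusted p = 0.0364).

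PTPN14 (ENSG00000152104; chromosome 1, 214348700 to 214552449, minus strand; 19 exons in its longest transcript) encodes a tyrosine phosphatase that binds YAP and promotes its retention in the cytoplasm. It had 2832, 2751 and 2788 normalized counts in NT and 3446, 3182 and 3206 in OXA. The NT libraries lay within a narrow range, and the lowest OXA library was above the highest of them. PTPN14 varied least of the 10 within groups: its biological coefficient of variation ranked at percentile 1.52 of all genes tested. A 1.17-fold difference (95% interval 1.03 to 1.33; log2 fold change 0.23, SE 0.079) had an edgeR adjusted p of 0.141 without the block and 0.0268 with it. The pair differences were 0.28, 0.21 and 0.20, and the value without NT1, 0.24, was close to that with it.

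The angiomotin-like genes also parted. AMOTL1 (ENSG00000166025; chromosome 11, 94706431 to 94876748, plus strand) encodes a junctional protein that binds YAP and TAZ and can hold them outside the nucleus. It had 3863, 4172 and 4259 normalized counts in NT and 3875, 3756 and 4095 in OXA. NT1 lay with the OXA libraries and the groups overlapped. The log2 fold change was -0.068 (SE 0.084, 95% interval -0.26 to 0.13, edgeR adjusted p = 0.696), with -0.13 without OXA3 and -0.040 without OXA2.

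AMOTL2 (ENSG00000114019; chromosome 3, 134355347 to 134375479, minus strand) encodes the second angiomotin-like protein, which binds YAP and LATS and is also listed among YAP/TAZ targets. It had 1459.8, 1816 and 1582 normalized counts in NT and 2153, 2356 and 1866 in OXA. The groups did not overlap, with OXA3 only slightly above NT2. The means of 1619 ± 181 and 2125 ± 246 (SD, n = 3) gave a 1.31-fold difference (95% interval 1.07 to 1.61), or 0.39 on the log2 scale (SE 0.13). The edgeR adjusted p was 0.121 without the block, 0.0207 with it and 0.0205 with the block and the authors' factors. The pair differences were 0.56, 0.38 and 0.24, in the same order as those of WWC1. Without NT1 the log2 fold change was 0.32, and the blocked call was lost without pair 2 (adjusted p = 0.0998).

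**Figure D2:**
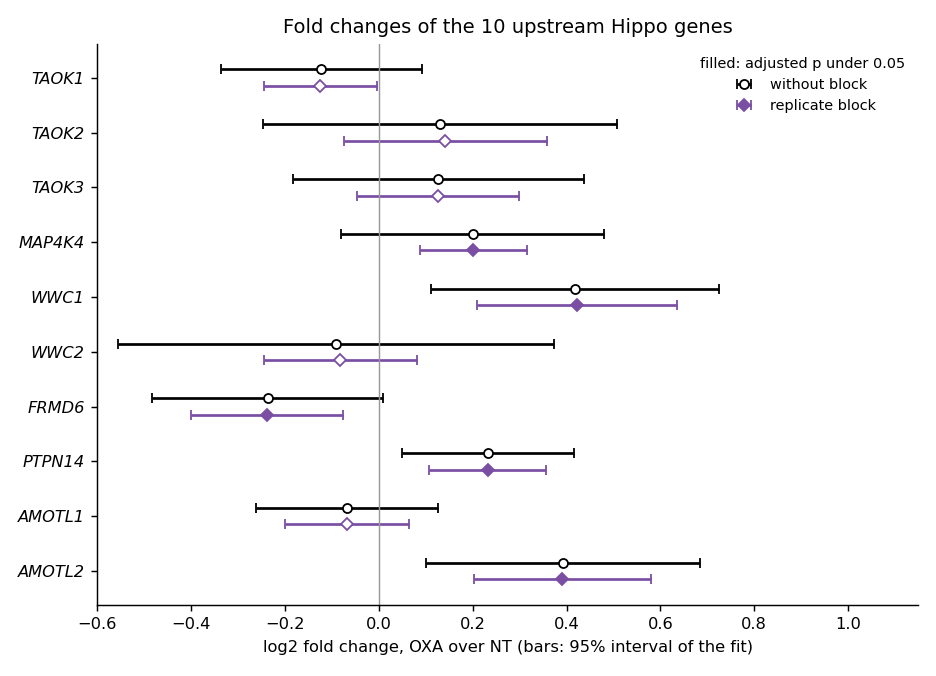
Log2 fold change of OXA over NT for each gene with its 95% interval, from the fit without a block (black circles) and from the blocked fit (purple diamonds), filled where the adjusted p-value is under 0.05. The estimates nearly coincide, the blocked intervals are narrower, and the filled symbols are the blocked values of MAP4K4, WWC1, FRMD6, PTPN14 and AMOTL2.

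The blocked calls changed with the pair left out, in fits whose p-values use a variance pooled over genes. Left without pair 1, the block called 4 of the 10 genes higher and 2 lower, the added one being TAOK1 (adjusted p = 0.0300), against 41.5% of all genes. Without pair 2 it called 1 gene, WWC1 (11.8% of all genes), and without pair 3 it called 2, WWC1 and AMOTL2 (22.3%). MAP4K4, FRMD6 and PTPN14 were called in 1 of those 3 fits. For all 10 genes no library left out of the unblocked fit gave a call, with edgeR adjusted p-values of 0.105 to 0.979 over those fits. Calls were also few among all genes there, 66 (without OXA1) to 623 (without NT1) higher and 19 (without OXA1) to 571 (without NT1) lower.

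The authors' own normalized values multiply each count by a factor that differs between genes as well as libraries. For WWC1 this factor, relative to the median gene of the library, was 1.19, 0.830 and 1.08 in NT1, NT2 and NT3 and 1.09, 0.903 and 0.978 in OXA1, OXA2 and OXA3. Its highest value was 1.43 times its lowest, a spread at percentile 85.5 of all genes tested. MAP4K4, TAOK3, WWC2 and FRMD6 also had uneven factors, whereas those of TAOK1, TAOK2, PTPN14, AMOTL1 and AMOTL2 stayed close to 1. With the authors' factors and the block, 4 of the 10 genes were called (WWC1, AMOTL2 and PTPN14 higher, FRMD6 lower), against 18.1% of all genes (9.61% higher and 8.50% lower). Without the block these factors gave 0 calls among the 10, and called 241 higher and 200 lower of the 13727 genes tested.

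**Figure D3:**
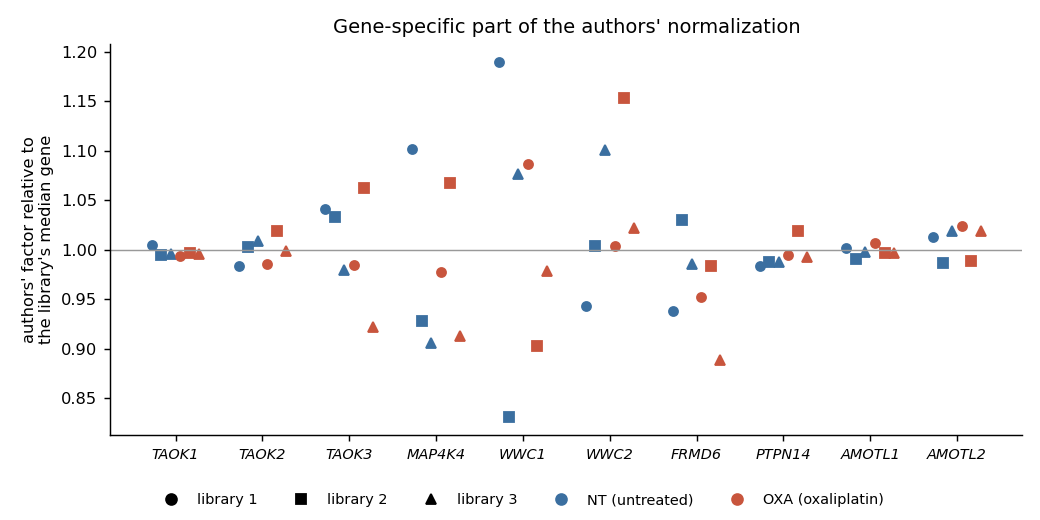
The authors' gene-specific factor divided by the median factor of the same library (linear axis, not starting at 0) for each gene in the 3 NT (blue) and 3 OXA (red) libraries, with symbols for the library number. WWC1 spans 0.830 to 1.19, while the points of TAOK1, AMOTL1 and AMOTL2 lie near the line at 1.

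Levels can be compared between genes only per length, and were expressed as CPM per kb of merged exon. The order of the genes, and which neighbours overlap, depends on that length. TAOK3 has 10532 bases of merged exon and 4346 in its longest transcript, against 10002 and 8862 for WWC2. An order by longest transcript was not drawn up. In NT the order was MAP4K4 (18.2 ± 2.25, SD, n = 3), AMOTL1 (11.4 ± 0.576), TAOK1 (9.76 ± 0.463), WWC1 (8.68 ± 1.29), AMOTL2 (6.94 ± 0.776), TAOK2 (5.82 ± 1.14), PTPN14 (4.14 ± 0.0599), FRMD6 (3.46 ± 0.177), WWC2 (3.43 ± 0.774) and TAOK3 (1.91 ± 0.209). Neighbours whose libraries overlapped were TAOK1 with WWC1, WWC1 with AMOTL2, AMOTL2 with TAOK2, and FRMD6 with WWC2. In OXA, MAP4K4 was again at the top (20.9 ± 2.19) and TAOK3 at the bottom (2.09 ± 0.247). WWC1 stood second (11.6 ± 1.20), with libraries overlapping those of AMOTL1 (10.8 ± 0.477), and AMOTL2 (9.12 ± 1.06) overlapped TAOK1 (8.97 ± 0.716). TAOK2, PTPN14, WWC2 and FRMD6 followed at 6.37, 4.86, 3.22 and 2.94, of which WWC2 and FRMD6 overlapped.

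The share of each gene in the summed level of its family was also compared. The size of a share depends on the gene length used. With the longest transcript in place of merged exons, AMOTL2 differed by 9.03 percentage points (OXA minus NT), against 8.70. For WWC1 the difference was 7.21 against 7.97, and for TAOK1 -4.39 against -4.44. Among the angiomotins, AMOTL2 made up 31.5%, 34.7% and 31.7% of the sum in NT1, NT2 and NT3 and 42.0%, 44.5% and 37.6% in OXA1, OXA2 and OXA3. The ranges did not meet, and the mean share was 32.6% ± 1.80 in NT and 41.3% ± 3.49 in OXA (SD, n = 3; two-sided exact permutation p = 0.1, the smallest that 3 against 3 allow). AMOT, the founding member of that family, held 13.8% in NT and 9.36% in OXA (exact permutation p = 0.1), and AMOTL1 held 53.5% and 49.3% (exact p = 0.2). The summed level of the 3 angiomotin genes was 21.2 ± 1.298 CPM per kb in NT and 22.0 ± 0.717 in OXA.

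In the WWC family, WWC1 made up 59.8%, 67.3% and 69.3% of the summed level in NT1, NT2 and NT3 and 71.9%, 74.6% and 73.9% in OXA1, OXA2 and OXA3. The groups were again apart, at 65.5% ± 5.02 and 73.5% ± 1.38 (SD, n = 3; exact permutation p = 0.1). NT1 had the lowest share, and without it the difference of 7.97 percentage points was 5.13. WWC2 held 26.1% in NT and 20.3% in OXA, a difference of -5.76 points that was -2.11 without NT1, and WWC3 8.45% and 6.23% (exact permutation p = 0.2 for each). The summed level was 13.2 ± 1.31 in NT and 15.8 ± 1.57 in OXA. Among the TAO kinases, TAOK1 held 55.9% and 51.5%, TAOK2 33.1% and 36.6%, and TAOK3 10.96% and 11.97% (exact p = 0.4, 0.6 and 0.5), and the sum was 17.5 ± 0.562 and 17.4 ± 0.221. Without NT1 the difference in share was -2.08 points for TAOK1, against -4.44 with it, and 0.18 for TAOK2, against 3.43. With 9 shares compared and a smallest possible p of 0.1, none of these differences can reach an adjusted p-value of 0.05.

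**Figure D4:**
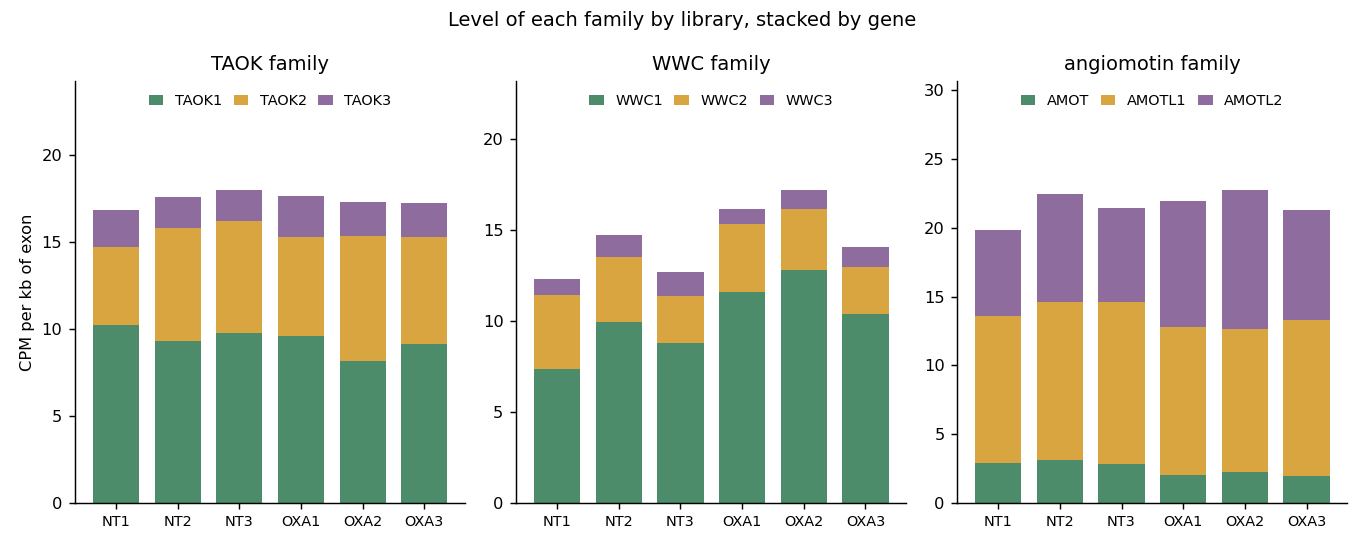
Level of each family in each library, as stacked bars of CPM per kb of exon from 0, coloured by gene. The AMOTL2 segment is thicker and the AMOT segment thinner in every OXA bar than in any NT bar, and the WWC1 segment is taller in every OXA bar, while the TAOK bars have nearly equal heights.

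Around these genes, 61 other genes of the pathway were read, of which 56 passed the filter: the core cascade, paralogues of the 10 genes, the STRIPAK phosphatase complex that dephosphorylates MST kinases, and polarity and junction proteins. In the fit without a block, 1 was higher (AJUBA) and 1 lower (AMOT), against 2.78% and 2.29% of all genes, and with the block 4 were higher and 4 lower, 8 of 56 against 23.0% of all genes. AJUBA, a LIM protein that inhibits LATS, had 1042, 966 and 1060.4 normalized counts in NT and 1717, 1423 and 1596 in OXA. Its groups were far apart, with a log2 fold change of 0.63 (SE 0.11, edgeR adjusted p = 0.0210), and with the authors' factors the adjusted p was 0.0555.

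AMOT, the paralogue of AMOTL1 and AMOTL2, went the other way. It had 885, 946 and 867 normalized counts in NT and 619, 679 and 597 in OXA, without overlap. The log2 fold change was -0.51 (SE 0.11, edgeR adjusted p = 0.0391), and with the authors' factors it was -0.39 (adjusted p = 0.186). AJUBA and AMOT were called without NT1 (edgeR adjusted p = 0.0118 and 0.0219), and when any other library was left out neither was called.

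Of the 14 core genes, edgeR called 0 without the block, with 2 at an unadjusted p-value under 0.05 (21.7% of all genes), and DESeq2 and limma-voom also called 0. With it NF2 (log2 fold change 0.31, adjusted p = 0.0273), the FERM protein that recruits LATS to the membrane, and WWTR1 (0.27, adjusted p = 0.0186), which encodes TAZ, were higher, and TEAD1 (-0.18, adjusted p = 0.0427) was lower, 3 of 14 against 23.0% of all genes. With the block and the authors' factors NF2 (adjusted p = 0.0630) and TEAD1 (adjusted p = 0.0620) were not called. Among 9 tested paralogues of the 10 genes the block added TNIK, a kinase of the MAP4K4 group, which was lower (-0.20, adjusted p = 0.0318). With AMOT this made 2 of 9 called, against 23.0% of all genes. The paralogues ranged from AMOT up to MAP4K2 (0.21, edgeR adjusted p = 0.628 without the block). In STRIPAK, edgeR called 0 of 14 without the block, with 2 at an unadjusted p-value under 0.05 (21.7% of all genes), and the other tools also called 0. The block called 1 higher and 1 lower of the 14, against 23.0% of all genes. With the block SLMAP was higher (0.22, adjusted p = 0.0351) and STRN lower (-0.36, adjusted p = 0.0228), SLMAP losing its call when the authors' factors were added (adjusted p = 0.0914). STK25 had the highest log2 fold change of the complex, 0.25 (edgeR adjusted p = 0.569). Of 19 tested polarity and junction genes only AJUBA was called in either fit, and FAT4, an atypical cadherin, had the lowest value (-0.38, edgeR adjusted p = 0.251).

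The 22 YAP/TAZ targets, which include AMOTL2 and PTPN14, were read beside the upstream genes. This list too was chosen with earlier results of these data known. Of the 19 that passed the filter, 3 were higher and 0 lower without the block, against 2.78% and 2.29% of all genes: AXL, a receptor tyrosine kinase (log2 fold change 0.92, edgeR adjusted p = 0.00489), CRIM1 (0.45, adjusted p = 0.0361) and NT5E, an ecto-nucleotidase (0.50, adjusted p = 0.0485). AXL was called whichever library was left out (highest edgeR adjusted p 0.0404). CRIM1 and NT5E kept their calls without NT1, lost them without any other library, and lost them with the authors' factors (adjusted p = 0.0811 and 0.0927). With the block 10 were higher and 0 lower, against 12.1% and 10.9% of all genes, AMOTL2 and PTPN14 among them. The others that the block added were MYOF, F3, CCN1, CCN2 and GADD45B, with log2 fold changes of 0.28 to 0.62. The median of the 19 was 0.28, against 0.13 for the 10 upstream genes and 0.023 for all genes tested. TGFB2, at under 50 normalized counts per library, had the lowest value (-0.30, edgeR adjusted p = 0.689). A difference between this list and the upstream genes was not tested. Whether YAP or TAZ had a part in the changes of the listed targets was not tested either.

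**Figure D5:**
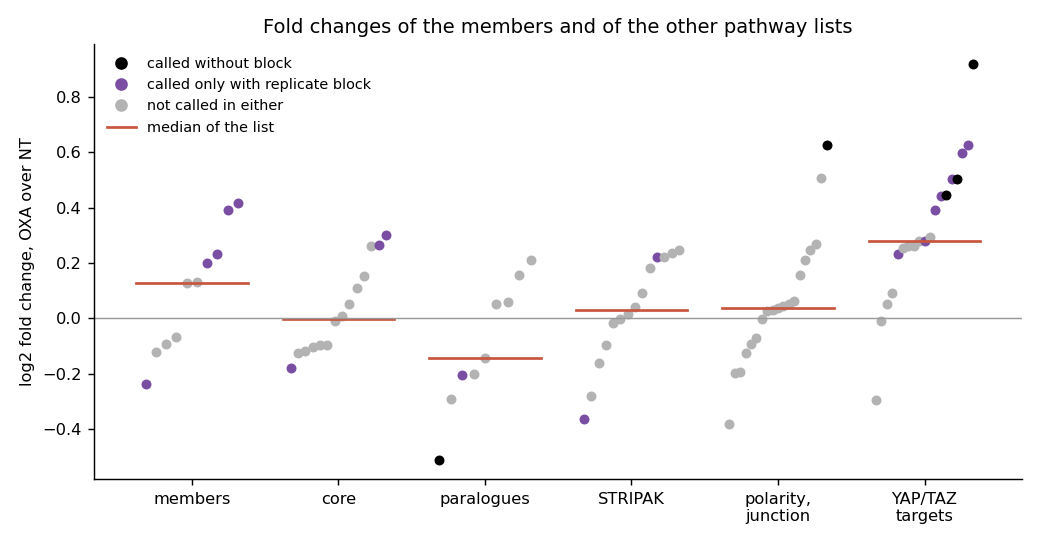
Log2 fold change (OXA over NT, fit without a block) of every tested gene in the 10 upstream genes (members) and in the 5 other lists, coloured by the fit in which its adjusted p-value was under 0.05, with red lines at list medians. AMOTL2, PTPN14 and LATS2 appear in more than 1 list, and the 10 upstream genes lie between -0.24 and 0.42 with no black point.

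Because WWC1 had the smallest p-value of the 10 without the block, the genes with the most similar pattern were sought by the root mean square distance of log2 normalized counts, each gene centred on its mean, over the 6 libraries. MEF2D, a MADS-box transcription factor, was closest (distance 0.036), followed by CLEC16A (0.041) and OGDH (0.043), a subunit of the 2-oxoglutarate dehydrogenase complex, against a median distance of 0.33 over all genes. MEF2D had 1460.8, 1953 and 1769 normalized counts in NT and 2281, 2635 and 1971 in OXA. Like WWC1, it was lowest in NT1 and highest in OXA2. Its log2 fold change was 0.41 (edgeR adjusted p = 0.157 without the block and 0.0347 with it). OGDH was likewise called with the block alone (0.40, adjusted p = 0.0170), and CLEC16A in neither fit (0.34, adjusted p = 0.0544 with the block).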

How the data were processed

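RNA-seq libraries of HCT116 cells, 3 NT and 3 OXA, were compared, with groups and library numbers taken from the labels. The authors deposited raw counts per gene, which are whole numbers and were used as such, and a normalized signal, the count times a factor that differs between genes and libraries, which served for an alternative. The submitters' processing notes name Trimmomatic 0.32, STAR 2.7.5b, RSEM 1.3.3 and DESeq2 2.13 with GRCh38, and the paper gives reads of 100 nt. The gene annotation and strand setting of the counting are not given in the sources used here, so reads from overlapping antisense genes may not be separable. The number of columns without a sample was 0.

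Of 27942 genes, 19353 had counts and 13727 passed edgeR's filterByExpr (minimum count 10, minimum total 15). Counts were normalized by TMM, brought to the mean effective library size for the printed normalized counts, and tested in R 4.3.3 with the quasi-likelihood test of edgeR 4.0.16. P-values were adjusted by Benjamini-Hochberg over all tested genes, with a threshold of 0.05. The alternatives used limma 3.58.1 and DESeq2 1.42.0. Library totals were 32979521 to 40967880. For the 10 genes the counting error of the lowest library was 1.16% to 3.90%, and the coefficient of variation between NT libraries was 1.45% (PTPN14, below its counting error of 1.94%) to 22.6%. PCR duplicates were not separable. Deviations from group means correlated at 0.55, 0.54 and 0.31 for libraries of the same number, each over the limit of 0.1, and at -0.47 to 0.090 for those of different numbers, so the numbers were taken to pair the libraries. This pairing comes from the data, as the labels do not say what a number stands for. Levels (CPM on the effective library size) per kb used merged exons, and positions came from GENCODE release 44 on GRCh38. Family shares were compared with two-sided exact permutation tests, and were also computed with the length of the longest transcript.

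The 10 genes and the lists (core, paralogues, STRIPAK, polarity and junction, YAP/TAZ targets, treatment reference, epithelial and other cell type markers) were chosen with earlier results of these data known. All 10 genes were to be named, as were list genes with an adjusted p-value under 0.05 in either fit (up to 8 per list), the extremes of a list, 3 p53 targets, and the 3 genes nearest to the member with the smallest p-value. The edgeR fits were tested on simulated data with independent libraries and with changes larger than those of the 10 genes. That test did not cover the blocked fit on libraries that pair. Alternatives were other normalization factors, other filters, DESeq2, limma-voom, other edgeR settings, the authors' factors, a 1.5-fold limit, the replicate block, and fits that left 1 library out. The block with the authors' factors and the block without each pair were chosen after seeing the data.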

Additional observations from a re-analysis of the deposited data

How the results depend on the processing

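Over 20 alternatives each, 8 of the 10 genes kept their direction. With 1 library left out, WWC2 ranged from -0.29 (without NT3) to 0.057 (without NT1, and 0.013 without OXA3) and TAOK2 from -0.024 (without NT1) to 0.20. Without a block, 0 of the 10 genes were called under any alternative. The calls depended on the pairing by library number: with the replicate block 4 of the 10 were higher and 1 lower, among 1664 higher and 1493 lower of all genes, 4 and 4 other pathway genes and 10 YAP/TAZ targets higher. With the block and the authors' factors the numbers were 3 and 1, 1319 and 1167, 3 and 2, and 10. With the block and pair 1, 2 or 3 left out, 4, 1 and 2 of the 10 were higher and 2, 0 and 0 lower, among 2939, 956 and 1886 genes higher and 2800, 673 and 1193 lower. In those fits 7, 2 and 7 other pathway genes were higher and 7, 1 and 2 lower, and 11, 5 and 9 YAP/TAZ targets were higher. Such fits rest on 4 libraries and on a variance pooled over genes. Without a block, 381 genes were higher and 315 lower; DESeq2 gave 608 and 567, the authors' factors 241 and 200, upper quartile factors 493 lower, and a 1.5-fold limit 198 lower. The authors' factors called 0 and 0 other pathway genes and 1 YAP/TAZ target higher. With 1 library left out, 66 (without OXA1) to 623 (without NT1) genes were higher and 19 to 571 lower, 0 to 1 other pathway genes were called in each direction, and 1 to 4 YAP/TAZ targets were higher. The causes of these shifts were not tested. The 95% intervals without a block span 0.37 (PTPN14) to 0.93 (WWC2) on the log2 scale.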
